A study of Mus musculus with 12 samples.

Results

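The comparison described here asks how the striatal transcriptome of the mouse differed when SUMO-1 was absent, averaged over animals with and without an expanded huntingtin allele. All 12 libraries of the series entered it, 6 labelled as SUMO-1 knockout against 6 others. The average log2 fold change of a gene is the mean of its change in SUMO-KO against WT and its change in Q175HD_SUMO-KO against Q175HD, taken from a single fit of the 4 group means. Of 53465 genes in the deposited table, 17796 had enough reads to be tested, and every one of them was tested.

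Each genotype had 3 libraries. WT libraries were labelled wild type. Q175HD libraries came from the Q175 neo-deleted knockin mouse, whose strain name is B6J.129S1-Htttm1.1Mfc/190ChdiJ. SUMO-KO libraries came from a SUMO-1 KO mouse, and Q175HD_SUMO-KO libraries from mice with the knock-in and the SUMO-1 knockout together. All 4 genotypes were labelled with the background C57/BL6 and as striatal cells. Age, the number of knock-in copies and the origin of the SUMO-1 line were not given in the sources used here. As for the tissue, the knockout was labelled without a cell type, so that neurons and glia of the tissue were measured together.

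SUMO proteins are small modifiers that a cascade of an activating enzyme, a conjugating enzyme and ligases attaches to lysines of other proteins, and that SENP proteases remove again. Sumo2 and Sumo3 encode widely expressed members of the family, and many SUMO targets are nuclear proteins that act in transcription, RNA processing and genome upkeep. Huntingtin is itself a SUMO target, and Rasd2, which encodes the striatum-enriched protein Rhes, is known to promote its SUMO modification.

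Libraries held 9379594 to 17226419 reads assigned to genes. Replicates differed beyond sampling noise, with a chi-square per degree of freedom of 8.44 to 27.5. Separate animals are not named for the replicates, and p-values thus cover the spread among these libraries only. Markers of the labelled tissue were present, and the summed level of 45 tested genes of striatal projection neurons was 9220 to 24800 CPM, which are read counts divided by scaled library sizes. Markers of other tissue varied between libraries within a genotype. The choroid plexus gene Ttr ranged from 26.6 to 4720 CPM over the 12 libraries, and the cortical glutamate transporter gene Slc17a7 was at 385, 245 and 106 CPM in WT against 12.9 to 106 elsewhere. The X-inactivation transcript Xist had 18092 reads in WT 2, 19854 in SUMO-KO 2 and 18386 in Q175HD_SUMO-KO 2, and at most 51 reads in the other 9 libraries. The Y-linked gene Ddx3y had 0 to 2 reads in those 3 libraries and 754 to 1852 in the other 9. Replicates of WT, SUMO-KO and Q175HD_SUMO-KO thus differed in sex and were not all from the same animal, whereas for Q175HD animal and technical spread cannot be told apart.

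A pair of libraries stood apart in make-up. SUMO-KO 1 and SUMO-KO 2 had 1.11% and 0.939% of their reads in TEC genes, an annotation class of transcripts that await experimental proof, whereas SUMO-KO 3 had 0.394% and the other 9 libraries 0.292% to 0.774%. The nuclear RNA Malat1 took 1.88% and 1.66% of their reads, against 0.954% in SUMO-KO 3. On the first principal component, which held 34.8% of the variance of log2 CPM, they were at 0.58 and 0.45 and SUMO-KO 3 at -0.06.

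**Figure D1:**
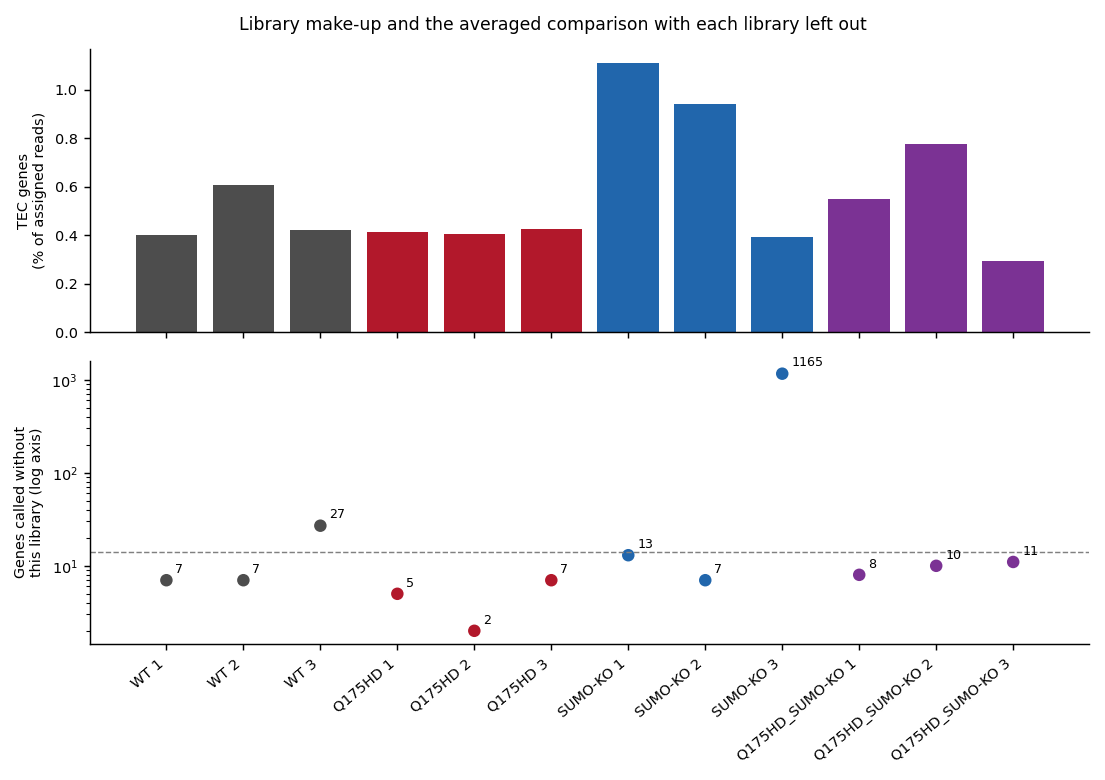
The upper panel gives the percentage of assigned reads in TEC genes for each library as bars, and the lower panel the number of genes called for SUMO-1 loss when that library was left out, on a log axis, with the count of 14 from all libraries as a dashed line. SUMO-KO 1 and 2 have the highest bars at 1.11% and 0.939%, and leaving out SUMO-KO 3 gives 1165 calls.

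SUMO-1 loss averaged over Htt status changed 14 genes at an edgeR adjusted p under 0.05, with 10 rises and 4 falls. The 14 were 0.0787% of the genes tested, 0.0562% for rises and 0.0225% for falls. DESeq2 called 203 of 13741 (1.48%), with the balance of direction turned: 65 were higher (0.473%) and 138 lower (1%). At an unadjusted p under 0.05, 2793 genes passed (15.7%), 1616 higher (9.08%) and 1177 lower (6.61%). The calls described here fell into genes on chromosome 1, noncoding RNAs of imprinted and small RNA loci, genes known to vary between mouse strains, and 3 others. The median log2 fold change over all genes tested was 0.03.

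**Figure D2:**
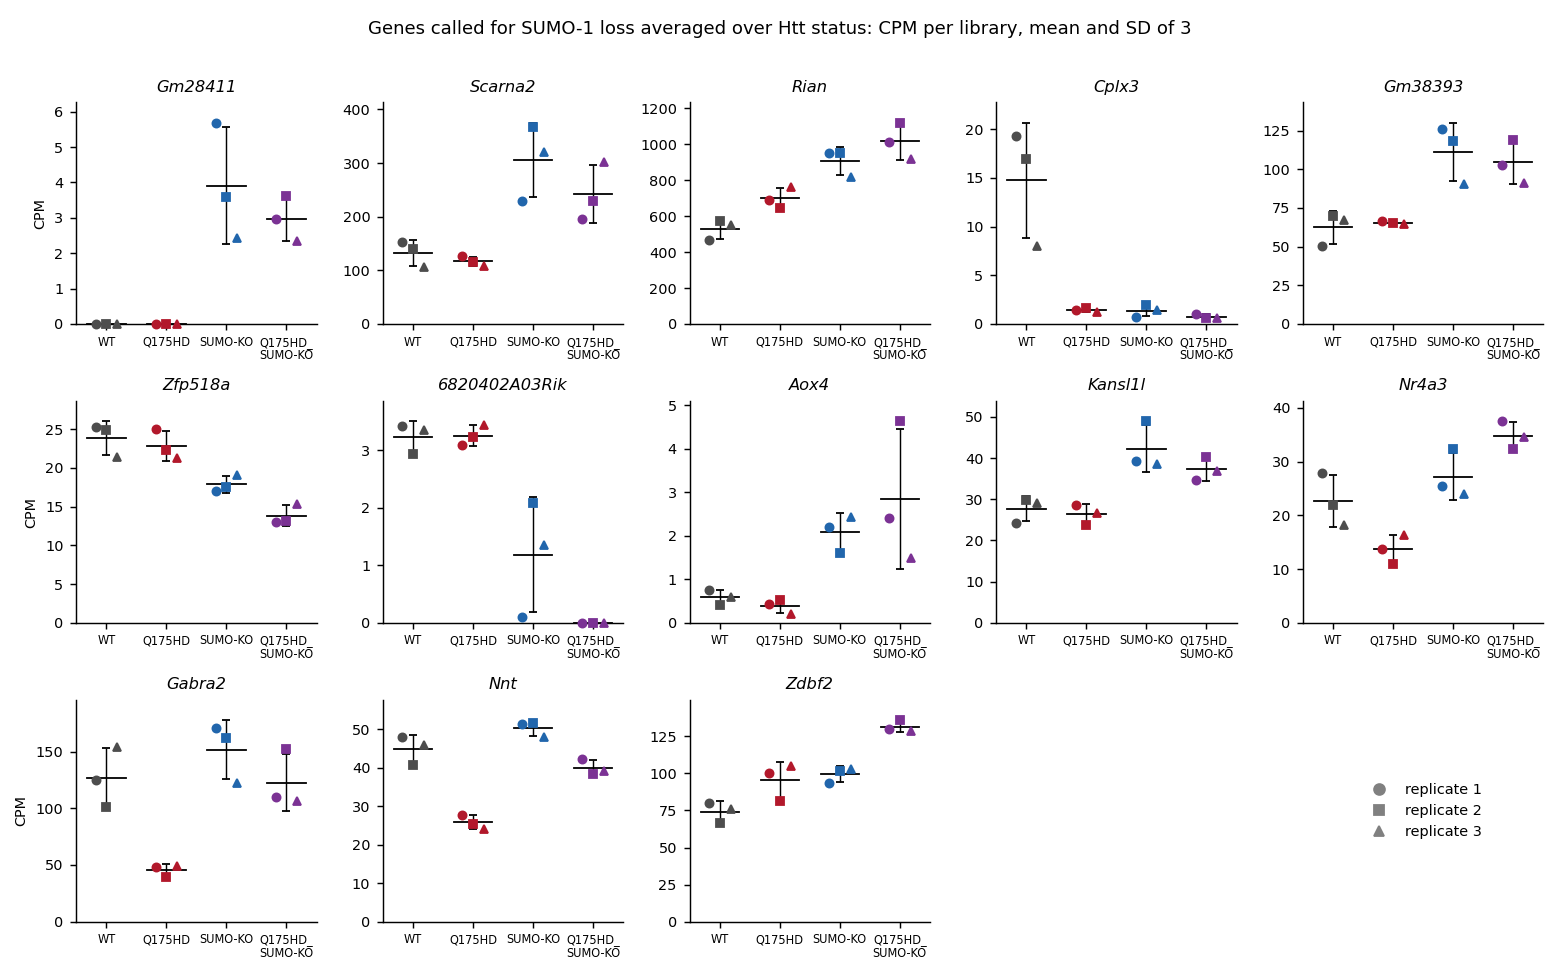
Each panel plots the level of 1 of the called genes described here in CPM for the 12 libraries by genotype, with the marker shape giving the replicate and the black bars the mean and SD of 3. Gm28411 is at 0 in every library with SUMO-1, and 6820402A03Rik at 0 in all 3 Q175HD_SUMO-KO libraries.

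The SUMO genes Sumo2 and Sumo3 did not pass the test. Sumo2, which encodes a modifier that forms chains, was at 10.5 to 17.5 CPM (median 14.6) in the knockout libraries and 11.9 to 18.5 (median 14.9) in the others, at -0.08 on the log2 scale (SE 0.08, edgeR adjusted p = 0.637). Sumo3, whose mature protein is nearly the same as that of Sumo2, was at 99.8 to 139 CPM against 76.9 to 149 (0.03, SE 0.09, edgeR adjusted p = 0.916), with a sign that turned in some other settings. On the length-corrected scale of the authors' deposited TPM values, Sumo2 was at 24.9 ± 5.21 (SD, n = 6) in the knockout libraries against 28.2 ± 5.9 (SD, n = 6). Sumo3 was at 96.6 ± 13.4 TPM (SD, n = 6) against 102 ± 22.7 (SD, n = 6). Sumo3 thus had more transcripts per length than Sumo2 in both arms.

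Among 33 genes of SUMO attachment and removal, 11 passed an unadjusted p of 0.05, 7 higher and 4 lower, beside 15.7% of all genes, 9.08% higher and 6.61% lower. Their median log2 fold change was 0.08, beside 0.03 over all genes. The SUMO ligase and nuclear pore gene Ranbp2 was at 306 to 452 CPM in the knockout libraries against 285 to 381 (0.15, SE 0.08, edgeR adjusted p = 0.365). Zfp451, a ligase for SUMO-2 and SUMO-3 chains, was at 124 to 139 CPM against 112 to 132 (0.14, SE 0.06, edgeR adjusted p = 0.279). Senp8, a protease that removes the related modifier NEDD8, and the deSUMOylating isopeptidase gene Desi1 were at 0.36 and -0.28, and were chosen after their values were seen. Of 27 known SUMO targets and PML body proteins, 0 were called by edgeR, 4 passed an unadjusted p of 0.05, and the median was -0.05. Htt was at 159 to 302 CPM against 189 to 284 (-0.01, SE 0.08, edgeR adjusted p = 0.962), a sign that turned in some settings, and Rasd2 at 145 to 673 CPM against 391 to 713 (-0.33, SE 0.19, edgeR adjusted p = 0.394).

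A noncoding transcript of chromosome 1 was read only in libraries labelled as knockout. Gm28411 is a noncoding gene on the minus strand at chr1:59532991-59549521 of GRCm38. It had 0 reads in each of the 6 libraries with SUMO-1. In SUMO-KO 1 to 3 it had 54, 36 and 34 reads, and in Q175HD_SUMO-KO 1 to 3 it had 37, 43 and 39. All 6 knockout libraries stood above all others, and the level was at least 91.7-fold higher, computed against a floor of 3 reads over the group (edgeR adjusted p = 0.000823). The floor covers counting error only.

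The first 212 of the 464 bases of its transcript Gm28411-202 are shown because Gm28411 had 0 reads in one arm and reads in every library of the other. It is spliced from 3 exons of 101, 111 and 252 bases on the minus strand of GRCm38, read from GENCODE M21. The last exon is left out, and the capitals mark the middle exon at chr1:59542439-59542549.
Gm28411-202, first and middle exon: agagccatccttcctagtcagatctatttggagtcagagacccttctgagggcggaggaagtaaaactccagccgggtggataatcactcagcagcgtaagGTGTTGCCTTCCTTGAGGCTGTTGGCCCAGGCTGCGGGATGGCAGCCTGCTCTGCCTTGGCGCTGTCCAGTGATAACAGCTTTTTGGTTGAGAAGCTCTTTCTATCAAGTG

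The same libraries were high for 1700122D07Rik, which was chosen after its values were seen and lies inside the span of Gm28411 on the same strand. It had 0 reads in the 6 libraries with SUMO-1 and 4 to 10 in the knockout libraries, too few to be tested, and was at least 13.3-fold higher. The library kit is directional per the labels, but the strand counted is not given in the sources used here. Reads of Gm28411 and of Gm973, which runs across it on the other strand, therefore cannot be told apart with certainty. Gm973 itself was at 9.6 to 16.2 CPM against 11 to 15.7 (-0.08, SE 0.13, edgeR adjusted p = 0.802).

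Among the other called genes on chromosome 1 were Aox4, Zdbf2, Kansl1l and 6820402A03Rik. Aox4, an aldehyde oxidase gene at chr1:58210397-58268597, had 9, 5 and 8 reads in WT and 6, 7 and 3 in Q175HD, against 21, 16 and 34 in SUMO-KO and 30, 55 and 25 in Q175HD_SUMO-KO. It rose in all 6 knockout libraries without overlap, by 2.34 on the log2 scale (SE 0.34, edgeR adjusted p = 0.0177). The neighbouring aldehyde oxidase gene Aox1, chosen after its values were seen, was at 7.21 to 13.7 CPM against 7.31 to 16.3 (-0.07, SE 0.18, edgeR adjusted p = 0.882), with a sign that turned in some settings. Zdbf2, an imprinted gene of the paternal allele at chr1:63273265-63314576, rose in CPM from 80.3, 66.6 and 75.8 in WT to 93.5, 102 and 103 in SUMO-KO, and from 100, 81.5 and 105 in Q175HD to 130, 136 and 129 in Q175HD_SUMO-KO. Its arms of 6 overlapped although neither pair of genotypes did (0.44, SE 0.07, edgeR adjusted p = 0.0403). Kansl1l, at chr1:66719248-66817562, was at 34.7 to 48.9 CPM (median 39) in the knockout libraries against 23.8 to 29.8 (median 27.6), without overlap (0.55, SE 0.08, edgeR adjusted p = 0.0268).

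6820402A03Rik, a TEC gene at chr1:66793645-66796298, inside the span of Kansl1l on the same strand, fell unevenly. It had 41, 35 and 45 reads in WT and 44, 43 and 52 in Q175HD. In SUMO-KO 1 to 3 it had 1, 21 and 19 reads, and it had 0 in each Q175HD_SUMO-KO library. The level in Q175HD_SUMO-KO was at least 44.5-fold lower than in Q175HD, on a floor of 3 reads over the group, and the log2 fold change in SUMO-KO against WT was -1.42 (edgeR adjusted p = 0.0165 for the average).

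Genes farther along the chromosome, chosen after their values were seen, were low in the same libraries. Gm25939, a spliceosomal snRNA gene at chr1:72255008-72255198, had 3392, 4797 and 5817 reads in WT and 3585, 3150 and 4632 in Q175HD. Its counts were 34, 1717 and 4178 in SUMO-KO 1 to 3 and 31, 53 and 20 in Q175HD_SUMO-KO, so that SUMO-KO 1 was as low as the double mutants while SUMO-KO 3 lay within the range of the libraries with SUMO-1. The averaged change was -3.95 (SE 0.82, edgeR adjusted p = 0.184). Sp110, a nuclear body gene at chr1:85576899-85598817, had 13 to 29 reads in the 6 libraries with SUMO-1. Its counts were 0, 7 and 12 in SUMO-KO 1 to 3 and 0, 1 and 0 in Q175HD_SUMO-KO (edgeR adjusted p = 0.0536). Mlph, at chr1:90915085-90951142, had 38 to 55 reads with SUMO-1, then 13, 26 and 59 in SUMO-KO 1 to 3 and 13, 17 and 18 in Q175HD_SUMO-KO (-1.0, SE 0.24, edgeR adjusted p = 0.169). In all 4 of these genes SUMO-KO 1 and the Q175HD_SUMO-KO libraries were low and SUMO-KO 2 and 3 were higher. Sequence differences that were carried along with the knockout and effects of SUMO-1 loss cannot be told apart in this design.

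Of 19 tested genes listed as varying between mouse strains, a pair was called. Gabra2, a GABA-A receptor subunit gene with a low-expressing allele in C57BL/6J, was at 125, 101 and 154 CPM in WT and at 48.3, 39.4 and 48.8 in Q175HD. It was at 171, 162 and 122 CPM in SUMO-KO and at 110, 152 and 106 in Q175HD_SUMO-KO. The Q175HD libraries alone were low, and the arms of 6 overlapped through WT. The average change of 0.84 on the log2 scale (SE 0.13, edgeR adjusted p = 0.0328) was made of 0.26 against WT and 1.43 against Q175HD (edgeR adjusted p = 0.516 and 0.0187). The difference between those changes had an unadjusted p of 0.000602 and an edgeR adjusted p of 0.548.

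Nnt, the mitochondrial transhydrogenase gene that is truncated in C57BL/6J, showed the same order. It was at 48, 40.8 and 45.9 CPM in WT, 27.8, 25.5 and 24.2 in Q175HD, 51.5, 51.6 and 48.1 in SUMO-KO and 42.4, 38.4 and 39.2 in Q175HD_SUMO-KO. The log2 fold change was 0.40 (SE 0.06, edgeR adjusted p = 0.0355), from 0.17 against WT and 0.63 against Q175HD. Again the 3 Q175HD libraries were low and the arms of 6 overlapped.

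Wdfy1 and Ide, from the same list but not called and chosen after their values were seen, placed WT 2 with Q175HD. Wdfy1 was at 21.5 CPM in WT 2 and 21.5 to 24.3 in Q175HD, against 48.1 to 56.7 in WT 1 and 3 and 48 to 58.6 in the knockout libraries (0.82, SE 0.18, edgeR adjusted p = 0.153). Ide, the insulin-degrading enzyme gene, was at 92.6 CPM in WT 2 and 98.1 to 103 in Q175HD, against 42.2 to 47.1 in WT 1 and 3 and 47.8 to 80 in the knockout libraries (-0.28, SE 0.20, edgeR adjusted p = 0.487). On the strain list, 2 genes were called, both higher (0.0562% of all genes rose), and 7 passed an unadjusted p of 0.05, beside 15.7% of all genes. The levels of Wdfy1 and Ide differed between WT libraries, and the part of strain background in the results was not tested.

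**Figure D3:**
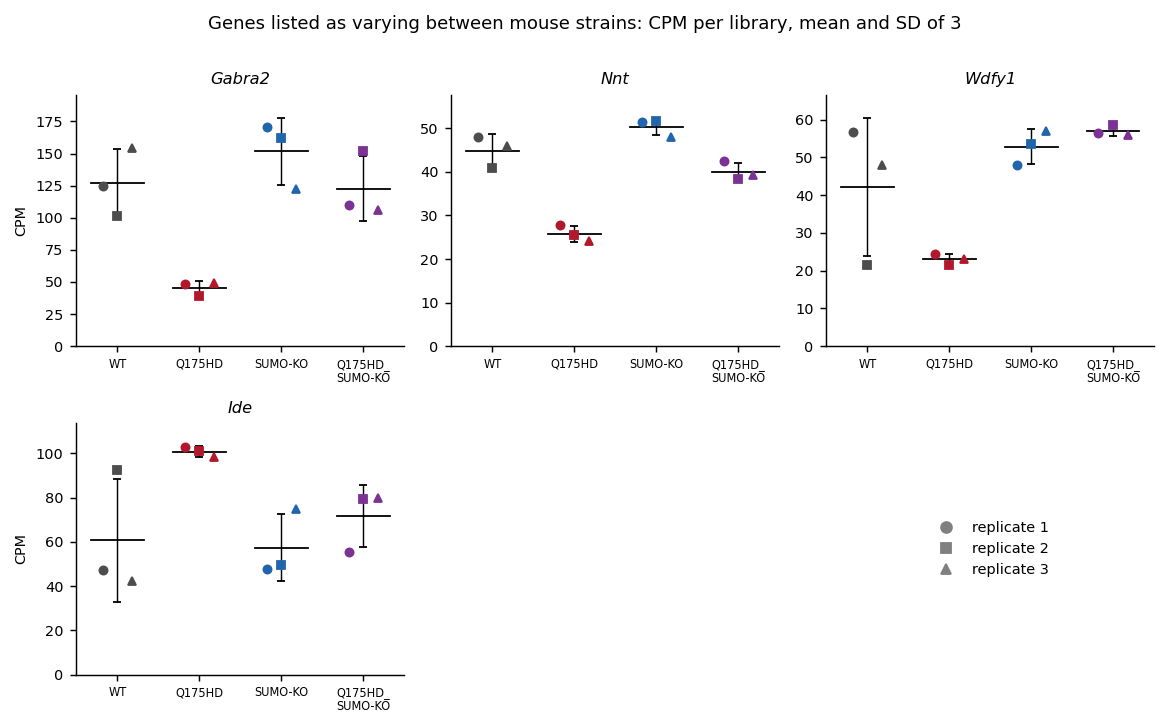
Panels give the CPM of 4 genes from the strain list in the 12 libraries by genotype, with the marker shape giving the replicate and the black bars the mean and SD of 3. WT 2 lies with the Q175HD libraries for Wdfy1 and Ide, and the 3 Q175HD libraries are the lowest for Gabra2 and Nnt.

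Noncoding RNAs rose at 3 loci outside chromosome 1. Scarna2, a small Cajal body RNA that guides modification of a spliceosomal RNA, is at chr3:108554338-108554751 on GRCm38. It was at 153, 139 and 106 CPM in WT, 126, 116 and 108 in Q175HD, 230, 367 and 320 in SUMO-KO and 196, 229 and 302 in Q175HD_SUMO-KO. Every knockout library was above every other library, as was so for 0.32% of all genes, and the level was 2.19-fold higher (log2 fold change 1.13, SE 0.14, edgeR adjusted p = 0.00881), with 1.21 against WT and 1.06 against Q175HD.

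Rian, a long noncoding RNA made from the maternal copy of the imprinted Dlk1-Dio3 locus and host of small nucleolar RNAs, is at chr12:109603940-109661716. It was at 467, 571 and 548 CPM in WT, 689, 644 and 761 in Q175HD, 950, 952 and 815 in SUMO-KO and 1010, 1120 and 916 in Q175HD_SUMO-KO. It rose 1.58-fold without overlap of the arms (0.66, SE 0.08, edgeR adjusted p = 0.00881). Meg3 and Mirg, noncoding RNAs of the same locus that were chosen after their values were seen, were at 0.37 (SE 0.16, edgeR adjusted p = 0.299) and 0.68 (SE 0.20, edgeR adjusted p = 0.235). SUMO-KO 1 and Q175HD_SUMO-KO 2, which are among the libraries rich in TEC reads, had the highest Meg3 at 3490 and 3420 CPM, and the part of that in the result was not tested.

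Gm38393, a predicted gene outside the naming rule, lies at chr7:59974149-60005064 in the imprinted Snrpn and Snhg14 region. It was at 90.3 to 126 CPM (median 110) in the knockout libraries against 50.2 to 70 (median 65.8), without overlap (0.75, SE 0.10, edgeR adjusted p = 0.0147). Of its neighbours, chosen after their values were seen, Snhg14, a long host transcript of small nucleolar RNAs, was at 395 to 925 CPM against 316 to 492 (0.67, SE 0.21, edgeR adjusted p = 0.238). Ube3a was at 224 to 283 CPM against 229 to 279 (0.07, SE 0.06, edgeR adjusted p = 0.579). Snhg14 was highest in SUMO-KO 1 and SUMO-KO 2, at 925 and 843 CPM, the libraries with the largest TEC share, and SUMO-KO 3 was at 441.

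Of the calls that were left, Zfp518a, a zinc finger gene on chromosome 19, fell in every knockout library. It was at 25.3, 24.9 and 21.4 CPM in WT, 25, 22.3 and 21.3 in Q175HD, 17, 17.5 and 19.1 in SUMO-KO and 13, 13.1 and 15.4 in Q175HD_SUMO-KO, without overlap (-0.57, SE 0.08, edgeR adjusted p = 0.0165).

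Nr4a3, an orphan nuclear receptor gene of the immediate early class that neurons induce on activity, rose on average by 0.81 (SE 0.12, edgeR adjusted p = 0.0268). It was at 27.9, 21.9 and 18.2 CPM in WT, 13.8, 10.9 and 16.3 in Q175HD, 25.5, 32.3 and 23.9 in SUMO-KO and 37.5, 32.4 and 34.6 in Q175HD_SUMO-KO. Q175HD was lowest and Q175HD_SUMO-KO highest, with a change of 1.35 between them and 0.26 in SUMO-KO against WT, and the arms of 6 overlapped through WT 1. The difference between those changes had an unadjusted p of 0.000661 and an edgeR adjusted p of 0.548. It was the only 1 of 24 immediate early genes called. Homer1 and Arc were at 0.08 and -0.47, neither of them called, and the median of the 24 was -0.06. That median was -0.28 in SUMO-KO against WT and 0.17 in Q175HD_SUMO-KO against Q175HD.

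Cplx3, which encodes a complexin of deep cortical neurons, fell on average by 2.19 on the log2 scale (SE 0.28, edgeR adjusted p = 0.00968). It had 230, 202 and 108 reads in WT, 21, 22 and 18 in Q175HD, 7, 19 and 20 in SUMO-KO and 13, 7 and 10 in Q175HD_SUMO-KO, so that WT alone was high. The change was -3.42 against WT and -0.95 against Q175HD (edgeR adjusted p = 0.00751 and 0.903). Cortical markers moved with it in SUMO-KO against WT, where the median log2 fold change of 24 cortical excitatory neuron genes was -1.03. In Q175HD_SUMO-KO against Q175HD they did not, with a median of 0.21 beside -0.95 for Cplx3. The summed level of the 24 was 2060 to 2730 CPM in WT, 1560 to 1640 in Q175HD, 1620 to 2020 in SUMO-KO and 1420 to 1720 in Q175HD_SUMO-KO. The same WT libraries 1 and 2 were highest for Slc17a7. When the mean of the cortical list entered the fit as a covariate (3 genes called, 0.0169%), a choice made after seeing the data, Cplx3 was at -1.69 and no longer called. Cplx3 is itself a member of that list and was thus fitted partly on its own level. The list mean was also highest in WT 1 to 3, at 1.22, 0.86 and 0.26 log2 units above the mean of the libraries. Q175HD_SUMO-KO 2 came next at 0.21. This fit therefore cannot tell whether Cplx3 changed apart from the other cortical genes.

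Gene lists were described by their counts and medians beside the 0.0787% of all genes called and the all-gene median of 0.03. Over all genes, 15.7% passed an unadjusted p of 0.05, 9.08% higher and 6.61% lower, and 56.2% had a log2 fold change above 0. Besides the members named above, 0 genes of the other lists were called by edgeR. In bulk tissue, fewer cells of a type and less RNA per cell cannot be told apart.

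**Figure D4:**
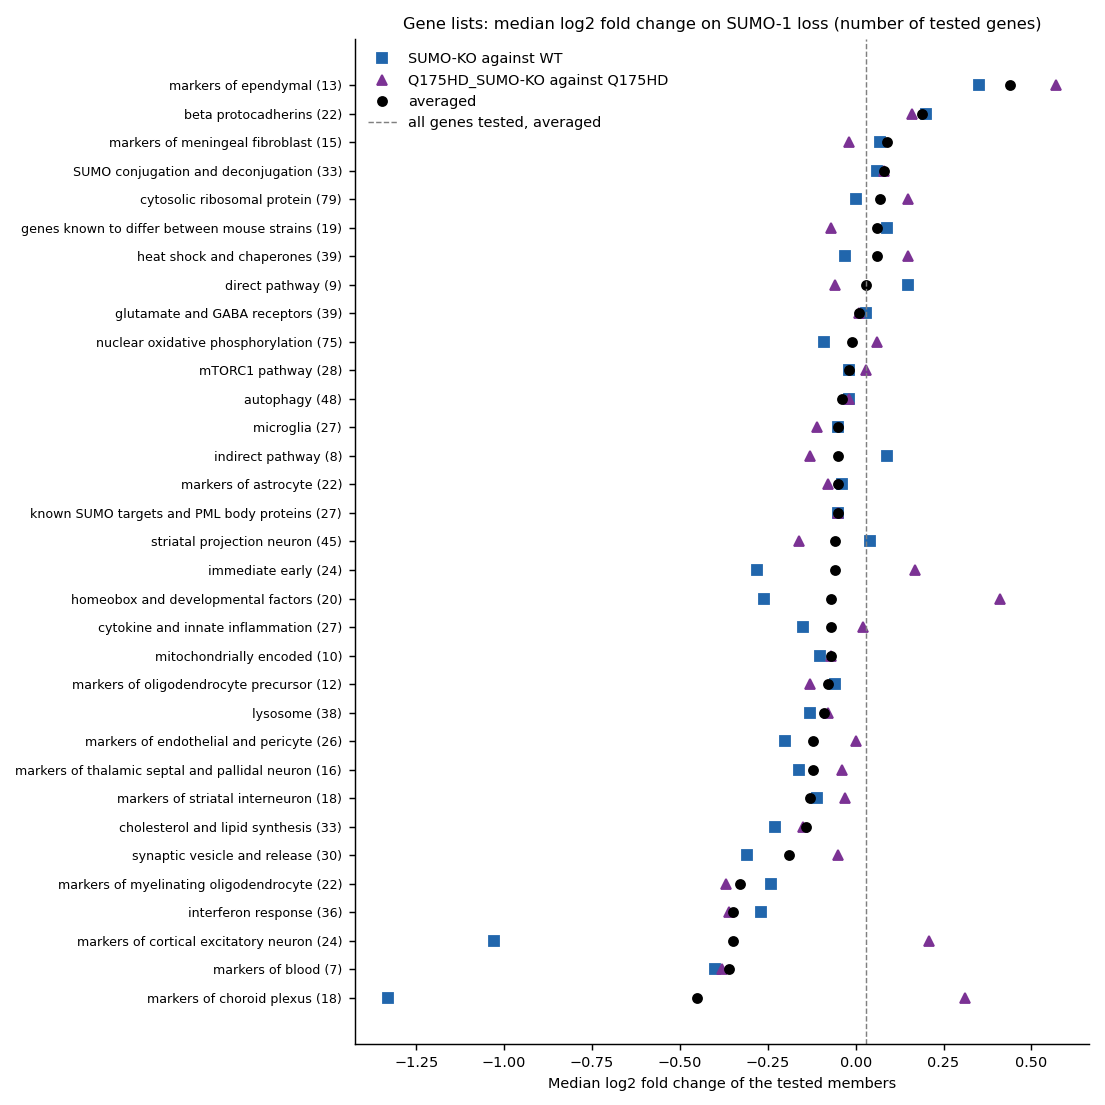
For each list with at least 5 tested genes, points give the median log2 fold change of its tested members averaged over Htt status (black), in SUMO-KO against WT (blue squares) and in Q175HD_SUMO-KO against Q175HD (purple triangles), with the averaged median of all genes as a dashed line. The averaged median is -0.33 for myelinating oligodendrocytes and 0.44 for ependymal cells. Several lists have opposite signs in the 2 comparisons, among them the cortical, choroid plexus, immediate early, homeobox and striatal projection neuron lists.

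Myelin genes were lower in all 22 of 22 tested members, with a median log2 fold change of -0.33, at -0.24 against WT and -0.37 against Q175HD. By edgeR 0 of the 22 were called and 13 passed an unadjusted p of 0.05, all lower, beside 6.61% of all genes that passed and were lower. Mbp, a major protein of compact myelin, was at 1790 to 3190 CPM (median 2890) in the knockout libraries against 2830 to 3960 (median 3400), a change of -0.34 (SE 0.14, edgeR adjusted p = 0.29). The summed level of the list overlapped between arms, at 5040 to 9000 CPM against 7730 to 10600, and was lowest in SUMO-KO 1 and Q175HD_SUMO-KO 2. With any 1 library left out the median stayed between -0.41 and -0.25.

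Genes of cholesterol and fatty acid synthesis showed a smaller shift of the same sign, at a median of -0.14 over 33 genes, 30 of them lower. By edgeR 0 were called and 14 passed an unadjusted p of 0.05, all lower, beside 6.61% of all genes that passed and were lower. Scd2, a desaturase gene, was at 1090 to 1630 CPM against 1400 to 1750 (-0.28, SE 0.10, edgeR adjusted p = 0.247). Fasn, the fatty acid synthase gene, was at 226 to 337 CPM against 276 to 373 (-0.37, SE 0.10, edgeR adjusted p = 0.208). Hsd17b7, an enzyme of late cholesterol synthesis chosen after its values were seen, was at -0.41 (SE 0.09, edgeR adjusted p = 0.118). It did not overlap between the arms, at 11.6 to 17.1 CPM against 17.3 to 20.6, as was so for 0.242% of all genes. The median of the list stayed between -0.20 and -0.15 with any 1 library left out, and 7 members were called lower without SUMO-KO 3, a fit in which 2.94% of all genes were called lower.

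Interferon response genes were lower in 33 of 36 tested members, with a median of -0.35. By edgeR 0 were called, and 9 passed an unadjusted p of 0.05, all lower, beside 6.61% of all genes that passed and were lower. Q175HD 2 stood apart here: its mean over the list was 1.11 log2 units above the mean of the 12 libraries, against -0.64 to 0.27 in the other 11. Oasl2, an interferon-induced gene chosen after its values were seen, was at 16.1 CPM in Q175HD 2, 2.51 to 7.29 in the other libraries with SUMO-1 and 1.9 to 3.97 in the knockout libraries (-1.15, SE 0.36, edgeR adjusted p = 0.238). Without Q175HD 2 the median of the list was -0.18. H2-D1, a class I antigen presentation gene, was at 19.5 to 43.6 CPM against 28.6 to 42.9 (-0.19, SE 0.11, edgeR adjusted p = 0.397). Of 27 tested genes of cytokines and innate inflammation and 27 of microglia, 0 were called, with medians of -0.07 and -0.05. C4b, a complement gene, was at 59 to 125 CPM against 76.6 to 199 (-0.49, SE 0.13, edgeR adjusted p = 0.203).

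Synaptic vesicle genes had a median of -0.19, with 0 of 30 called by edgeR. At an unadjusted p under 0.05, 14 passed, 13 of them lower, beside 15.7% of all genes, 6.61% lower. The shift was in SUMO-KO against WT, at -0.31, and at -0.05 in Q175HD_SUMO-KO against Q175HD, and a test of that difference over the list was not made. Syt1, the calcium sensor of release, was at 709 to 861 CPM against 733 to 1070 (-0.19, SE 0.07, edgeR adjusted p = 0.25). WT 1, which was highest in cortical markers, was also highest for this list, at 0.38 log2 units above the mean of the libraries. On that scale WT 2 and WT 3 were at 0.15 and 0.21, and SUMO-KO 3 was level with them at 0.20. SUMO-KO 1 and SUMO-KO 2, the libraries with the largest TEC share, were at -0.15 and -0.18, and the part of that in the shift was not tested.

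Genes of the striatal projection neurons did not pass the test. Of 45 tested members 0 were called by edgeR and 3 passed an unadjusted p of 0.05, beside 15.7% of all genes. The median was -0.06, and the pathway lists had medians of 0.03 for the direct and -0.05 for the indirect pathway. In SUMO-KO against WT these medians were 0.04, 0.15 and 0.09, and in Q175HD_SUMO-KO against Q175HD -0.16, -0.06 and -0.13. Q175HD_SUMO-KO 2 had the lowest summed level of the 45, 9220 CPM, against 12600 and 13300 in Q175HD_SUMO-KO 1 and 3. With the cortical list as covariate their median was -0.21. In that fit 16 passed an unadjusted p of 0.05, all lower, beside 2189 of all 17796 genes in either direction. The dopamine receptor gene Drd2 was at 59.5 to 234 CPM against 115 to 214 (-0.13, SE 0.13, edgeR adjusted p = 0.637). The adenosine receptor gene Adora2a was at 53.1 to 251 CPM against 120 to 283 (-0.34, SE 0.17, edgeR adjusted p = 0.337). Both arms pool the 2 Htt genotypes. Of 39 glutamate and GABA receptor genes Gabra2 was the only call, and Grin2b, Gria2 and Gabbr1 were at -0.06, 0.22 and -0.08.

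Protein clearance genes did not pass either. Among 48 autophagy genes 0 were called, and the median was -0.04. At an unadjusted p under 0.05, 11 passed, 4 higher and 7 lower, beside 15.7% of all genes, 9.08% higher and 6.61% lower. Sqstm1, the autophagy receptor gene, was at 214 to 337 CPM against 274 to 312 (-0.13, SE 0.08, edgeR adjusted p = 0.435). The lysosome list had 8 of 38 genes at an unadjusted p under 0.05, all lower, and a median of -0.09, and the mTORC1 list 2 of 28 and -0.02. Heat shock and chaperone genes had a median of 0.06, and genes of cytosolic ribosomal proteins one of 0.07 with 70 of 79 above 0, beside 56.2% of all genes. In SUMO-KO against WT the heat shock and ribosomal medians were -0.03 and 0.0, and in Q175HD_SUMO-KO against Q175HD both were 0.15. By edgeR 0 genes of the lysosome, mTORC1, heat shock and ribosomal lists were called.

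Beta protocadherin genes, neuronal cadherins of a clustered locus, were above 0 in 17 of 22 members, with a median of 0.19. At an unadjusted p under 0.05, 7 passed, all higher, beside 9.08% of all genes that passed and were higher. By edgeR 0 were called, and Pcdhb14, the member with the most reads, was at 38.5 to 67.6 CPM against 34.1 to 42.8 (0.32, SE 0.12, edgeR adjusted p = 0.256). The list mean, in log2 units around the mean of the libraries, was -0.45, -0.15 and -0.3 in WT 1 to 3. It was 0.04, 0.02 and -0.31 in SUMO-KO 1 to 3. In Q175HD 1 to 3 it was 0.12, 0.08 and 0.15, and in Q175HD_SUMO-KO 1 to 3 it was 0.2, 0.56 and 0.03. SUMO-KO 1, SUMO-KO 2 and Q175HD_SUMO-KO 2 had the largest TEC shares, and the part of that in the shift was not tested. Ependymal markers, of the ciliated cells that line the ventricle, were above 0 in 13 of 13 tested members with a median of 0.44, and 0 were called. Their summed level overlapped, at 50.9 to 135 CPM against 48.3 to 108, and the other markers of tissue at the ventricle, those of the choroid plexus, spread from 337 to 7340 CPM over the libraries.

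The comparisons that make up the average share no library. SUMO-KO against WT had 8 calls (0.045%) and Q175HD_SUMO-KO against Q175HD had 6 (0.0337%), and at an unadjusted p under 0.05 the shares were 13.5% and 5.28%. Across 17796 genes their log2 fold changes had a Pearson r of 0.336 and a Spearman rho of 0.377, given as a description since genes are not independent replicates. At an unadjusted p under 0.05, 206 genes passed in both, 8.6% of the first list and 21.9% of the second, and 187 of them had the same sign. Without the 3 libraries high in Xist the correlation was 0.008 and 81 genes passed in both, 68 of them with the same sign. By edgeR 0 genes were called for the interaction, the difference between the 2 changes, with 770 at an unadjusted p under 0.05 (4.33%) and 32 called by DESeq2.

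Leaving out SUMO-KO 3 changed the averaged comparison most. The count of calls rose from 14 to 1165 (6.41%), 631 higher (3.47%) and 534 lower (2.94%), and the 14 were all among them. Of the genes then called higher, 25.4% were TEC genes, against 7.82% of those tested, and 98.5% of the genes called lower were protein coding, against 78.8%. The count was 2 without Q175HD 2, 5 without Q175HD 1, 7 without Q175HD 3, SUMO-KO 2, WT 1 or WT 2, 8 without Q175HD_SUMO-KO 1 and 27 without WT 3. The SUMO-KO libraries left once SUMO-KO 3 is out are the 2 with the largest TEC and Malat1 shares, and the part of this in the result was not tested. Gm28411 was called whichever single library was left out. With 1 library left out, Scarna2, Rian and Cplx3 were called in 11 of 12 fits and lost the call without Q175HD 2, at an edgeR adjusted p of 0.0548. Gm38393 was called in 8 of the 12, Aox4 and 6820402A03Rik in 7, Zfp518a and Nr4a3 in 6, Gabra2 and Kansl1l in 3, and Nnt and Zdbf2 in 1. Without WT 1 and WT 2, and again without the 3 libraries high in Xist, each of these 12 genes lost the call. With high Xist as a covariate and all 12 libraries kept, 14 genes were called, 12 of them among the main 14. Gabra2 and Zdbf2 lost the call in that fit. With the cortical covariate 11 of these 12 genes lost the call and Aox4 kept it, with Scarna2 and Rian at an edgeR adjusted p of 0.154. Over all these settings their log2 fold changes kept their sign.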

How the data were processed

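Total RNA of mouse striatum was measured in 12 libraries, 3 per genotype. Per the labels, the miRNeasy Mini Kit gave the RNA, ribosomal RNA was depleted, and the NEBNext Ultra II directional kit followed. Among the tools, STAR 2.5.2a, cutadapt 2.10, DESeq2 and Bowtie 1.1.2 appear in the submitters' processing notes, as do the builds GRCm38 and mm10. Their roles, the tool that counted reads and its strand setting were not given in the sources used here.

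Raw counts, whole numbers of reads for each Ensembl gene, are what the deposited table holds, and 0 of its columns belong to another series. The authors' deposited TPM values are corrected for transcript length and library size and were used only to compare Sumo2 with Sumo3. Per the file headers, the authors' deposited log2 fold changes and adjusted p-values have the column names of DESeq2 output. With an adjusted p-value under 0.05, the authors' deposited table lists 245 genes in SUMO-KO against WT and 19 in Q175HD_SUMO-KO against Q175HD.

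The test was that of edgeR 4.0.16 in R 4.3.3: filterByExpr (minimum count 10, minimum total 15), TMM scaling, 4 group means over all 12 libraries and the quasi-likelihood test with robust dispersion (common BCV 0.171). Calls needed an adjusted p under 0.05 (Benjamini-Hochberg, over 17796 genes). The SE is the size of the log2 fold change divided by the square root of F. A fold against a group with 0 reads used a floor of 3 reads over the group at a confidence level of 0.95, for counting error only. Positions come from GENCODE M21, in which 17772 of the tested genes were found. On simulated data made from these 17796 genes the averaged comparison called 57.1% of genes changed by 0.5 log2 units. It called 77.3% at 1 log2 unit, 92.8% at 2, and 10 of 17596 unchanged genes. Whether these shares hold for the measured libraries, which differed in make-up, was not tested. DESeq2 1.42.0 was an alternative.

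Genes were named by a rule: Sumo2, Sumo3, Htt and Rasd2 always; the 15 largest rises and 15 largest falls of the calls whose mean count was 50 or more without overlap within either Htt status, leaving out Y-linked genes, Xist, Tsix, pseudogenes and predicted genes; called members of 33 lists, up to 4 per direction; or up to 3 members by expression where under 2 were called. Some genes, and the results that rest on them, are not reported here. The comparison, lists and rule were chosen with earlier results of these data known. Among lists with 0 calls by edgeR that the results do not describe, the median log2 fold change was -0.07 for homeobox factors and for mitochondrially encoded genes, and -0.01 for nuclear oxidative phosphorylation. It was -0.05 for astrocytes, -0.08 for oligodendrocyte precursors, -0.12 for endothelial cells and for thalamic, septal and pallidal neurons, and -0.13 for striatal interneurons. It was 0.09 for meningeal fibroblasts, -0.36 for blood and -0.45 for choroid plexus.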

Additional observations from a re-analysis of the deposited data

How the results depend on the processing

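The count of 14 genes called on SUMO-1 loss averaged over Htt status was 203 with DESeq2. Without a filter on low counts it was 133, 32 higher (0.0975%) and 101 lower (0.308%). With high Xist as a covariate it was 14, 12 of them among the main calls. It was 3 with the mean of the cortical list as covariate (the cortical covariate) and 3 without WT 1 and WT 2. It was 2 without the libraries high in Xist, and 2 to 1165 with 1 library left out. The cortical covariate was chosen after seeing the data. For SUMO-KO against WT, the 8 calls became 251 with DESeq2, 119 without a filter, 5 without robust dispersion and 2 at a mean count of at least 50. They became 0 with the cortical covariate, with the 6 libraries of these genotypes alone, without WT 1 and WT 2 and without the libraries high in Xist, and 0 to 1422 with 1 library left out. For Q175HD_SUMO-KO against Q175HD, the 6 calls became 19 with DESeq2, 18 without a filter, 11 with the 6 libraries alone, 3 without the libraries high in Xist, 1 with the cortical covariate, and 1 to 11 with 1 library left out. The interaction had 32 calls with DESeq2, 2 without a filter and 0 to 34 with 1 library left out.

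The 5 called list members became 28 with DESeq2, 14 without a filter, 2 without WT 1 and WT 2, and 1 with the cortical covariate or without the libraries high in Xist, with a range of 1 to 57 when 1 library was left out. The cause of these changes was not tested.

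Signs turned only in genes that were not called. With the cortical covariate Grin2b was at 0.04, Gm973 at 0.06, Aox1 at 0.22, Sumo3 at -0.16 and Htt at 0.08. Without WT 1 and WT 2, Gm973 was at 0.05, Aox1 at 0.13 and Sumo3 at -0.13. Sumo3 was at 0.00 with DESeq2 and -0.02 without a filter. With 1 library left out, values ranged over 0 from -0.18 to 0.01 for Gm973, -0.15 to 0.07 for Aox1, -0.05 to 0.11 for Sumo3 and -0.07 to 0.01 for Htt.

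The labels give no meaning to the replicate numbers, and not every correlation between same-numbered libraries was over 0.1 (11 of 18, within -0.228 to 0.574), so the numbers were not taken to pair the libraries. As a hint from the data, 9 of 12 libraries correlated best with their own number, and replicate 2 was high in Xist in 3 of 4 genotypes. With the replicate block the averaged comparison had 12 calls, 11 of them among the 14, and 3 list members were called. Nr4a3, Gabra2 and Zdbf2 were not called in that fit. Depth limits genes of few reads, such as Gm28411 and 6820402A03Rik, to counting precision.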
